A study of Mus musculus with 4 samples.

Results

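The 6 genes described here encode anti-Müllerian hormone (Amh), its type 2 receptor Amhr2, the type 1 receptors Bmpr1a, Bmpr1b and Acvr1, and Bmpr2, the type 2 receptor of a related pathway. They were chosen by symbol, all 6 were found among the 32285 genes of the count files, and each was followed across the cell types of 4 libraries of single ovarian cells. The libraries came from mice treated from postnatal day 25 onward, 1 library per group. The control group received PBS or saline. The doxorubicin group received the anthracycline doxorubicin at 3 mg/kg in 2 weekly doses, the doxorubicin+AMH group received the same doses with recombinant human AMH at 0.75 mg/kg, and the AMH group received recombinant human AMH at 0.75 mg/kg alone. Ovaries were taken 4 hours after the second doxorubicin dose, and each library pooled 1 ovary from each of 5 mice. The strain and the route of dosing are not given in the sources used here. The title of the series asks whether the hormone protects the ovary from doxorubicin. Because each group is 1 pooled library, no test between groups was possible: every difference below is between libraries, and the intervals cover counting error only.

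Anti-Müllerian hormone is a ligand of the TGF-β family that granulosa cells of growing follicles secrete, and it is known for restraining the recruitment of primordial follicles. It binds Amhr2, a type 2 receptor kinase dedicated to this ligand, which then activates a type 1 receptor (Acvr1, Bmpr1a or Bmpr1b) shared with bone morphogenetic proteins (BMPs). The type 1 receptor phosphorylates SMAD1, SMAD5 and SMAD9, which enter the nucleus with SMAD4 and induce genes such as the Id genes and the inhibitory SMADs. Bmpr2 is the general type 2 receptor for BMPs and is not known as an AMH receptor.

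Coordinates are given on GRCm38 (mm10), the build named in the submitters' processing notes, from the GENCODE M21 annotation. Amh lies on chromosome 10 from 80805243 to 80807648 on the plus strand, and Amhr2 on chromosome 15 from 102445367 to 102454633 on the plus strand. Bmpr2 lies on chromosome 1 from 59763400 to 59879014 on the plus strand. Bmpr1a (chromosome 14, 34410734 to 34503341), Bmpr1b (chromosome 3, 141837136 to 142169425) and Acvr1 (chromosome 2, 58388644 to 58567157) lie on the minus strand. No counted gene overlapped a member on its own strand, and only Bmpr1a had a counted gene on the opposite strand, Gm17110. The gene Sf3a2, which encodes a splicing factor subunit, ends 318 bases before Amh on the same strand. The last 100 bases of each annotated transcript of the 6 genes occurred in no transcript of another gene.

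The promoter of Amhr2 is shown because Nr5a1, an orphan nuclear receptor known to act on genes of steroid-making cells, was lower in theca-like cells of both AMH-treated libraries (values given with the pathway genes). The 250 bases before the Amhr2 start (chr15:102445117-102445366, plus strand) are from RefSeq on GRCm38.p6, with capitals marking the one match to CAAGGTCA, the letters of a binding site of the Nr5a family.
Amhr2 promoter: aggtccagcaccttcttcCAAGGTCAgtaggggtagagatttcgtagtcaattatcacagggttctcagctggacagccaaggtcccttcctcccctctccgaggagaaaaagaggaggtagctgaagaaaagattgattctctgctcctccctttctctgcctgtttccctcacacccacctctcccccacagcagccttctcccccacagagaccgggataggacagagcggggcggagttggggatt
The match starts 232 bases before the gene start. The RefSeq table held 7 windows for 5 of the 6 members (250 bases before to 50 after the start; none for Amh), and CAAGGTCA, searched on both strands, was in the Amhr2 window and in none of the windows of Bmpr1a, Bmpr1b, Acvr1 or Bmpr2. Of all 32851 windows in the table, 1.56% held it. A match of letters does not show that a factor binds there. In theca-like cells as a class, Amhr2 itself was higher in both AMH-treated libraries, though lower within the cluster led by Cyp17a1 and Cyp11a1 (values below). A link between the levels of Nr5a1 and Amhr2 was not tested.

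Clustering gave 31 clusters, of which 29 could be named from marker genes, in 12 classes. Neither the 6 genes nor the pathway genes below took part in the clustering. Unless stated, 4 values in a row follow the order control, doxorubicin, doxorubicin+AMH, AMH. Granulosa-like cells numbered 2062, 1998, 2173 and 2807, and theca-like cells, the androgen-making cells around the follicle, 830, 574, 737 and 894. Levels are in CPM, the UMIs of a gene per 1000000 UMIs of all cells of a class in a library. None of the 7 granulosa markers was at 0 in granulosa-like cells of any library, and their summed level was 4420, 4179, 5889 and 4853 CPM. The markers went different ways. Inha, the largest, had 2240, 2198, 3486 and 2823 CPM, and Hsd17b1 and Cyp19a1 were also higher in both AMH-treated libraries. Fshr had 145, 133, 119 and 103 CPM and Nr5a2 647, 483, 473 and 434 CPM. These and Gatm were lower in AMH than control and in doxorubicin+AMH than doxorubicin, while Serpine2 went both ways. Their part in the levels below was not tested. No cluster was named oocyte-like or luteal-like. The theca-like cluster led by Cyp17a1 and Cyp11a1 had 3 of 5 luteal markers beside 7 of 7 theca markers, and was named for the latter. Median depth per granulosa-like cell was 23140, 22696, 21993 and 17952 UMIs. Pairs of libraries shared 11 to 24 cell barcodes, at most 0.281% of the smaller library.

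Amh was a granulosa gene in these libraries. Granulosa-like cells held 96.7%, 96.5%, 93.4% and 89.3% of all Amh UMIs among the kept cells. Their level was 138, 197, 69.9 and 43.9 CPM. The highest level in any library of the next class in order, erythroid-like cells, was 16.3 CPM, and the highest outside granulosa-like cells among the classes ranked was 28.2 CPM, in T or NK lymphocyte-like cells of doxorubicin+AMH. Theca-like cells had 1.57 to 3.45 CPM and stroma-like cells 2.80 to 4.80 CPM. The other 10 classes and clusters that were ranked overlapped their neighbours in the order. Macrophage-like cells, which are not known to make the hormone, had 4.49 to 7.78 CPM, so levels of this size were read as background.

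**Figure D1:**
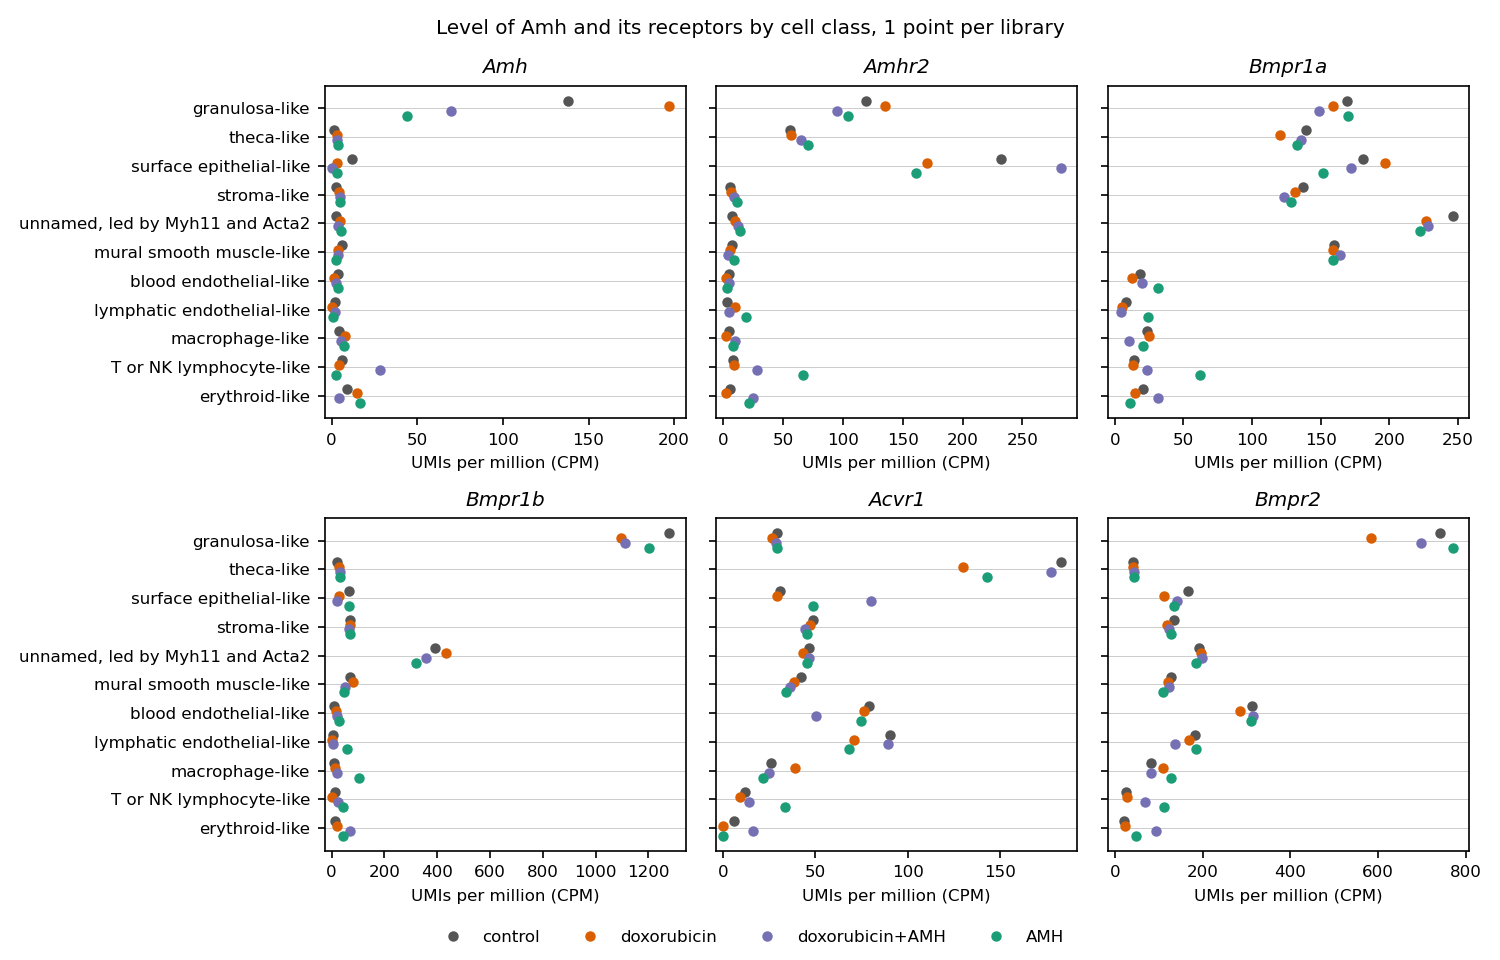
Level of each gene (x axis, CPM, linear) in 10 cell classes and 1 unnamed cluster (y axis), with 1 point per library coloured by treatment. Amh points are high in granulosa-like cells alone, where they run from 43.9 to 197 CPM, while Amhr2 is highest in surface epithelial-like and then granulosa-like cells and Acvr1 is highest in theca-like cells.

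Amhr2, the dedicated type 2 receptor, had its highest level in summed UMIs in surface epithelial-like cells, the mesothelial layer that covers the ovary. Its level there was 232, 170, 282 and 161 CPM, from only 107, 94, 38 and 65 cells. Granulosa-like cells had 119, 135, 94.7 and 104 CPM and theca-like cells 55.6, 56.8, 64.9 and 71.2 CPM. In these summed UMIs the ranges over the 4 libraries did not overlap between surface epithelial-like and granulosa-like cells or between granulosa-like and theca-like cells. Theca-like cells overlapped T or NK lymphocyte-like cells, which reached 66.7 CPM in AMH but had 7.93 CPM in control. With each cell weighted equally, surface epithelial-like cells had 176, 130, 253 and 124 CPM of Amhr2. Granulosa-like cells then had 117, 138, 94.5 and 102 CPM, so the ranges overlapped and granulosa-like cells were higher in doxorubicin. With each cell thinned to 2000 UMIs, 14.5% to 32.4% of surface epithelial-like and 16.2% to 22.9% of granulosa-like cells had an Amhr2 UMI. Granulosa-like cells, which were many more, held 75.1% to 80.5% of all Amhr2 UMIs, theca-like cells 10.7% to 13.8% and surface epithelial-like cells 2.14% to 7.43%.

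The surface epithelial-like cells came in 2 clusters that differed in Amhr2, a split looked at after the values were seen. In the cluster led by Lgals7, Upk3b and Nrg1, which also had Lgr5 among its leading genes, Amhr2 stood at 306, 263, 304 and 311 CPM. In the cluster led by C3, Slpi and Upk3b it stood at 13.2, 5.38, 0 and 19.3 CPM. The 2 clusters had 68 and 39 cells in control, 55 and 39 in doxorubicin, 36 and 2 in doxorubicin+AMH, and 30 and 35 in AMH. Within the first cluster the 4 levels lay close together, and AMH / control was 1.02-fold (95% counting interval 0.876 to 1.18). The high class level in doxorubicin+AMH went with the near absence of the second cluster from that library. Globin transcripts were also high in that library's surface epithelial-like sum, at 10708 CPM for the erythroid list against 8.10 to 19.9 CPM in the other libraries. Their part in the Amhr2 level was not tested.

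Acvr1 and Bmpr1b, type 1 receptors, differed between libraries in these surface cells. Acvr1, also called ALK2, stood in the cluster led by Lgals7 at 28.8, 17.9, 80.7 and 64.2 CPM, so both AMH-treated libraries were above both others. AMH was 2.23-fold above control (1.52 to 3.24) and doxorubicin+AMH 4.51-fold above doxorubicin (2.82 to 7.26). With each cell weighted equally, Acvr1 was 20.5, 14.6, 45.3 and 64.0 CPM, with the same 2 libraries high. The thinned shares of the class with an Acvr1 UMI, 2.94%, 7.87%, 8.82% and 6.45%, rest on 3 to 7 cells per library and did not follow that order. Bmpr1b in the same cluster stood at 58.1, 7.67, 18.8 and 66.8 CPM, from 143, 15, 10 and 52 UMIs. With each cell weighted equally it was 81.6, 17.7, 62.6 and 61.5 CPM, so doxorubicin was the lowest library in both measures, while doxorubicin+AMH was below AMH in the summed UMIs alone. In the whole surface epithelial-like class, its own markers summed to 7064, 5534, 5397 and 4227 CPM and stroma markers to 2366, 3265, 1790 and 5031 CPM. The part of either in these receptor levels was not tested. These values rest on 30 to 68 cells per library, and the comparisons were picked after the values were seen.

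Bmpr1b, a type 1 receptor with an established role in ovulation and follicle growth, was a second granulosa gene. Its level in granulosa-like cells was 1278, 1098, 1112 and 1202 CPM, and these cells held 89.8% to 91.7% of its UMIs. The next highest was an unnamed cluster led by the smooth muscle genes Myh11 and Acta2, at 390, 433, 356 and 319 CPM. Theca-like cells had 21.8 to 32.4 CPM. Oviduct-type epithelial-like cells, left out of the order because doxorubicin had 1 such cell, had 533, 225 and 443 CPM in control, doxorubicin+AMH and AMH.

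Bmpr1a, a type 1 receptor also called ALK3, had its highest level in the same unnamed cluster, at 246, 227, 228 and 222 CPM. Granulosa-like cells had 169, 159, 149 and 170 CPM, surface epithelial-like cells 152 to 197 CPM, mural smooth muscle-like cells 159 to 164 CPM, theca-like cells 120 to 139 CPM and stroma-like cells 123 to 137 CPM. The first 3 of these overlapped one another, as did theca-like and stroma-like cells. Every blood, lymphatic and immune class lay below them, with levels of at most 61.9 CPM among the classes ranked.

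Acvr1 had the reverse distribution to Bmpr1b between the 2 follicular cell types. Theca-like cells had 183, 130, 178 and 143 CPM against 29.4, 26.3, 28.9 and 29.3 CPM in granulosa-like cells. Lymphatic endothelial-like cells (68.1 to 90.5 CPM) and blood endothelial-like cells (50.6 to 79.3 CPM) followed the theca-like cells, and the ranges of these 2 overlapped. Theca-like cells held 36.4% to 48.5% of all Acvr1 UMIs. Of the 3 type 1 receptors, Bmpr1b was thus higher in granulosa-like cells in every library, Acvr1 was higher in theca-like cells in every library, and Bmpr1a was 149 to 170 CPM in the former and 120 to 139 CPM in the latter.

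Bmpr2, the BMP type 2 receptor, was highest in granulosa-like cells, at 741, 585, 698 and 770 CPM. Blood endothelial-like cells, where the gene is best known for its part in vascular disease, had 313, 286, 316 and 311 CPM and overlapped no neighbour in the order. Theca-like cells, the third in the order for Amhr2, were near the low end for Bmpr2, at 41.1 to 43.9 CPM. Blood endothelial-like cells, the second in the order for Bmpr2, had 2.43 to 4.67 CPM of Amhr2, which is no higher than the 2.59 to 9.46 CPM of macrophage-like cells.

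Amh was lower in granulosa-like cells of both libraries that received the recombinant hormone. The level was 3.15-fold lower in AMH (43.9 CPM) than in control (138 CPM), with a 95% counting interval of 3.02 to 3.28. It was 2.81-fold lower in doxorubicin+AMH (69.9 CPM) than in doxorubicin (197 CPM), with an interval of 2.72 to 2.91. These contrasts share no library. Ratios were called past 1.5-fold on log2(CPM + 5), over the 6621 genes that averaged 20 CPM or more. Amh had log2 values of -1.55 and -1.43, where the medians of all genes were -0.059 and -0.035. Of all genes, 1.06% were past 1.5-fold lower in both contrasts, and 0.347% past 1.5-fold higher in both. Amh was the 1 member of the 6 past it in either direction.

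Between libraries that differed in doxorubicin, Amh went the other way. Doxorubicin (197 CPM) was 1.42-fold above control (138 CPM), interval 1.38 to 1.46, and doxorubicin+AMH (69.9 CPM) was 1.59-fold above AMH (43.9 CPM), interval 1.52 to 1.67. On the log2 scale these were 0.49, short of 1.5-fold, and 0.61, just past it. Both calls turned on the processing: the first ratio was 0.69 with each cell weighted equally, and the second fell short in 4 of 11 alternatives, at 0.46 to 0.52. No gene was past 1.5-fold in both doxorubicin contrasts in granulosa-like cells (0% higher and 0% lower). Sf3a2, the upstream neighbour, had 30.0, 33.3, 24.7 and 22.0 CPM in granulosa-like cells. It followed the same order as Amh over the libraries with smaller steps, and its part in the Amh counts was not tested.

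The lower Amh with AMH was seen within most granulosa-like clusters, and the cluster with the most Amh among those shared held fewer cells in the AMH-treated libraries. Of 8 granulosa-like clusters, 6 had at least 50 cells in every library. The cluster led by Cntn4 and Slc18a2 had the most Amh, at 270, 393, 195 and 136 CPM. The cluster led by Inhba and Inhbb, which encode activin and inhibin subunits, had 204, 285, 95.3 and 54.6 CPM. That led by Fst and Fshr, which encode follistatin and the FSH receptor, had 108, 123, 62.4 and 44.0 CPM. In these 3 clusters control and doxorubicin were both above doxorubicin+AMH, and doxorubicin+AMH was above AMH.

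Lower levels followed the same AMH contrast. The cluster led by Inhba and Hsd17b1, with the natriuretic peptide gene Nppc among its leading genes, had 59.9, 52.0, 23.3 and 25.1 CPM. That led by Kcnq5 and Nr5a2 had 24.7, 19.3, 9.89 and 7.73 CPM. Over these 5 clusters, the difference was 1.99-fold to 3.73-fold between AMH and control and 1.95-fold to 2.99-fold between doxorubicin+AMH and doxorubicin, with no counting interval reaching 1. The Kcnq5 and Nr5a2 cluster, which gave the 1.95-fold, averaged under 20 CPM of Amh, and its 7.73 CPM in AMH lies within the levels of macrophage-like cells that were read as background. The exception was the cluster led by Spef2, with a median of 2846.5 to 3447 UMIs per cell, where Amh stood at 73.2, 154, 103 and 100 CPM. There AMH was 1.37-fold above control, with an interval of 0.938 to 2.05, while doxorubicin+AMH was 1.49-fold below doxorubicin (1.11 to 2.02).

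The higher Amh with doxorubicin was not seen in every cluster. Doxorubicin was above control by 1.14-fold to 2.11-fold in the clusters led by Fst, by Inhba and Inhbb, by Cntn4 and by Spef2. It was 1.28-fold below control in the Kcnq5 and Nr5a2 cluster (1.11 to 1.48) and 1.15-fold below in the Inhba and Hsd17b1 cluster (0.960 to 1.38).

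The mix of clusters moved with treatment. The Cntn4 and Slc18a2 cluster, highest in Amh among those shared, held 372 of 2062 granulosa-like cells in control, 321 of 1998 in doxorubicin, 172 of 2173 in doxorubicin+AMH and 264 of 2807 in AMH. The Inhba and Inhbb cluster, the second in Amh level in control, held 306, 235, 483 and 431, and the Inhba and Hsd17b1 cluster 159, 172, 347 and 384. The Kcnq5 and Nr5a2 cluster, the lowest in Amh, held 670, 509, 437 and 713. With the mix held at that of control over the 6 shared clusters, a calculation added after the data were seen, Amh stood at 138, 186, 82.0 and 55.5 CPM, with a log2 ratio of -1.24 in the first AMH contrast and -1.13 in the second. Both were still past 1.5-fold, and smaller than in the plain sums.

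**Figure D2:**
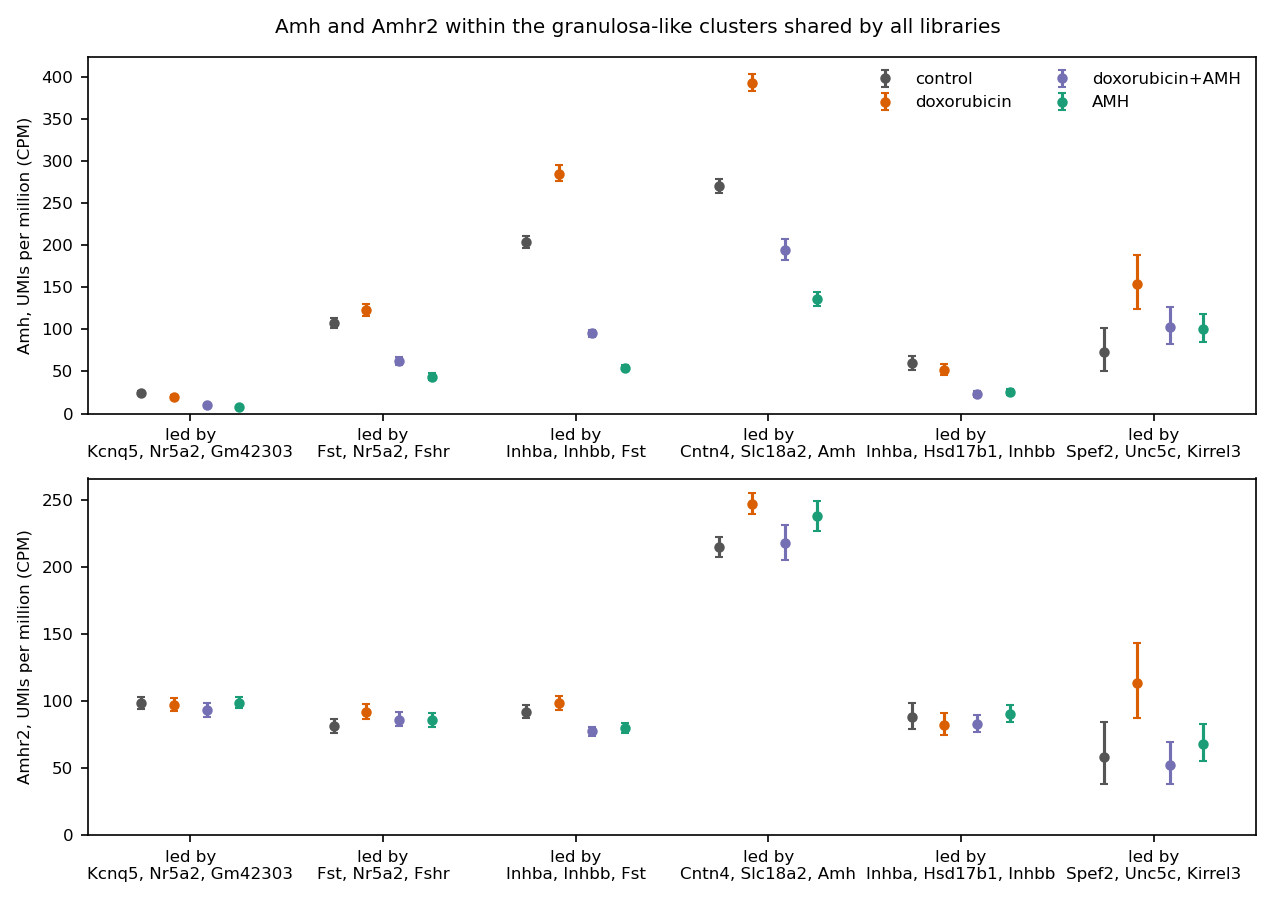
Amh (upper panel) and Amhr2 (lower panel) in the 6 granulosa-like clusters present in every library, named on the x axis by leading genes; the y axis is CPM, points are libraries and bars are exact Poisson 95% intervals of the UMI counts. Amh is lower in both AMH-treated libraries in 5 clusters, while Amhr2 stays between 77.2 and 98.8 CPM in 4 clusters and is 215 to 247 CPM in the cluster led by Cntn4 and Slc18a2.

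The other 2 granulosa-like clusters came almost wholly from doxorubicin. The first, led by Cntn4 and B230209E15Rik, had 178 of its 180 cells in that library and 89.0 CPM of Amh there. The second, led by Amh, Wfdc10 and Kctd14, had 78 of its 83 cells there and 1299 CPM of Amh, with 565 CPM of Amhr2. In that cluster's doxorubicin cells Bmpr1b stood at 203 CPM and Bmpr2 at 65.2 CPM, below every shared granulosa-like cluster of the same library. As each group is 1 library, a cluster of 1 library cannot be told apart from that library. Without both clusters, the log2 ratio of Amh in granulosa-like cells was 0.40 between doxorubicin and control, and -1.33 between doxorubicin+AMH and doxorubicin.

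Amh was unevenly spread over cells. In control, 56.0% of granulosa-like cells had no Amh UMI and the cell with most had 143, and in AMH 72.7% had none and the cell with most had 66. The tenth of cells with most Amh held 67.2%, 67.5%, 77.4% and 80.3% of its UMIs. With each cell thinned to 2000 UMIs, the share of granulosa-like cells with an Amh UMI was 13.8% (Clopper-Pearson interval 12.3 to 15.3), 20.6% (18.9 to 22.5), 10.0% (8.79 to 11.4) and 7.46% (6.50 to 8.51). Thinning left out 29, 22, 39 and 85 cells, and unthinned shares were 44.0%, 47.9%, 33.2% and 27.3%. In stroma-like cells, which served as background, thinned shares were 0.427% to 1.10% at median depths of 7881 to 11631 UMIs.

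Amhr2 did not pass 1.5-fold in any contrast in granulosa-like cells. From 119 CPM in control it stood at 104 CPM in AMH, 1.15-fold lower (interval 1.11 to 1.19), and from 135 CPM in doxorubicin it stood at 94.7 CPM in doxorubicin+AMH, 1.43-fold lower (1.38 to 1.47). Inside most of the shared clusters these differences were smaller, the exception being the cluster led by Spef2, at 58.1, 113, 52.2 and 67.9 CPM, where doxorubicin+AMH was 2.16-fold below doxorubicin (1.46 to 3.21). In the cluster led by Cntn4 and Slc18a2, the highest of those shared, levels were 215, 247, 218 and 238 CPM, and AMH was 1.11-fold above control (1.05 to 1.17). In the Kcnq5 and Nr5a2 cluster they were 98.3, 97.1, 93.2 and 98.8 CPM. With the cluster mix held at that of control, Amhr2 was 119, 130, 116 and 123 CPM, so the sign of AMH / control turned and the log2 ratio of doxorubicin+AMH / doxorubicin went from -0.49 to -0.16. The turned AMH / control ratio of Amhr2 was small, at 0.042 on the log2 scale, and Amh kept its sign in both AMH contrasts with the mix held. The part of the cluster mix in these differences was not tested.

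In theca-like cells Amhr2 was somewhat higher with AMH as a class and lower within 1 cluster. The class levels of 71.2 CPM in AMH and 55.6 CPM in control gave 1.28-fold (1.19 to 1.38), and 64.9 CPM in doxorubicin+AMH against 56.8 CPM in doxorubicin gave 1.14-fold (1.05 to 1.25). Different clusters held most of the class: that led by Cyp17a1 and Cyp11a1, enzymes of androgen synthesis, held 794, 546, 182 and 167 cells, and that led by Lhcgr and Prss35 held 36, 28, 555 and 727. In the first, Amhr2 was 55.8, 56.9, 34.3 and 39.3 CPM, so both AMH-treated libraries were lower, by 1.42-fold (1.22 to 1.66) and 1.66-fold (1.41 to 1.96), the second past 1.5-fold on the log2 scale at -0.65. In the second it was 40.5, 52.0, 79.3 and 83.0 CPM, with few cells behind the first 2 values. The class ratio thus has the opposite sign to the ratio inside the cluster led by Cyp17a1 and Cyp11a1. Theca markers in the whole class summed to 15542, 14760, 5872 and 4879 CPM, lower in both AMH-treated libraries, and stroma markers in the same cells to 761, 847, 1479 and 1363 CPM. Among the theca markers Star went both ways, at 427, 316, 378 and 322 CPM. Luteal markers in these cells summed to 1617, 1573, 762 and 802 CPM, granulosa markers to 481, 476, 257 and 289 CPM, and erythroid markers to 97.0, 29.7, 447 and 9.44 CPM. The part of these in the Amhr2 levels was not tested.

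The type 1 receptors and Bmpr2 stayed within 1.5-fold in granulosa-like cells as a class. Over the 4 contrasts Bmpr1a lay between -0.19 and 0.01, Bmpr1b between -0.22 and 0.02, Acvr1 between -0.14 and 0.11 and Bmpr2 between -0.34 and 0.25 on the log2 scale, none past 1.5-fold. The largest of these was Bmpr2, 1.27-fold lower in doxorubicin (585 CPM) than in control (741 CPM), with an interval of 1.25 to 1.28. Doxorubicin+AMH (698 CPM) against AMH (770 CPM), which shares neither library, was 1.10-fold lower (1.09 to 1.12). Within the cluster led by Fst and Fshr, Bmpr2 stood at 831, 551, 648 and 735 CPM, and doxorubicin was 1.51-fold below control (1.46 to 1.56), past 1.5-fold on the log2 scale at -0.59. In the shallow cluster led by Spef2, Acvr1 stood at 62.4, 33.1, 56.7 and 41.0 CPM, with doxorubicin 1.88-fold below control (1.03 to 3.51) and doxorubicin+AMH 1.71-fold above doxorubicin (1.00 to 3.03). Another scaling, by median-of-ratios size factors, moved the median of all genes by 0.10 in AMH / control and turned the signs of Bmpr1b and Acvr1 there.

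Of the 5 members that passed the filter in theca-like cells, Acvr1 and Bmpr1b differed most between libraries, with neither past 1.5-fold in the class as a whole. Acvr1 was 1.40-fold lower in doxorubicin (130 CPM) than in control (183 CPM), with an interval of 1.33 to 1.47, and 1.28-fold lower in AMH (143 CPM) than in control (1.22 to 1.34). Doxorubicin+AMH, at 178 CPM, was 1.37-fold above doxorubicin (1.30 to 1.44). Control and doxorubicin+AMH were thus high and the other 2 libraries low, and the 2 AMH contrasts had opposite signs. Of 9 alternatives, 1 put Acvr1 past 1.5-fold in doxorubicin / control and 1 in doxorubicin+AMH / doxorubicin. In the Cyp17a1 and Cyp11a1 cluster alone, control had 184 CPM and the other libraries 133, 133 and 139 CPM, and doxorubicin+AMH stood at 1.00-fold of doxorubicin (0.917 to 1.09). Bmpr1b in theca-like cells stood at 21.8, 27.9, 32.4 and 31.7 CPM, 1.45-fold higher in AMH than in control (1.29 to 1.64). In the Cyp17a1 and Cyp11a1 cluster alone it stood at 20.9, 24.3, 37.3 and 38.9 CPM, and AMH / control was past 1.5-fold at 0.76 on the log2 scale. For the class, Bmpr1b AMH / control was 0.45 on that scale, and 0.18 to 1.24 over 9 alternatives, past 1.5-fold in 2. Of 6261 genes in theca-like cells, 4.28% were past 1.5-fold higher and 6.61% lower in both AMH contrasts, and 0.0160% higher and 0.0160% lower in both doxorubicin contrasts. None of the 5 members that passed the filter there was among them.

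**Figure D3:**
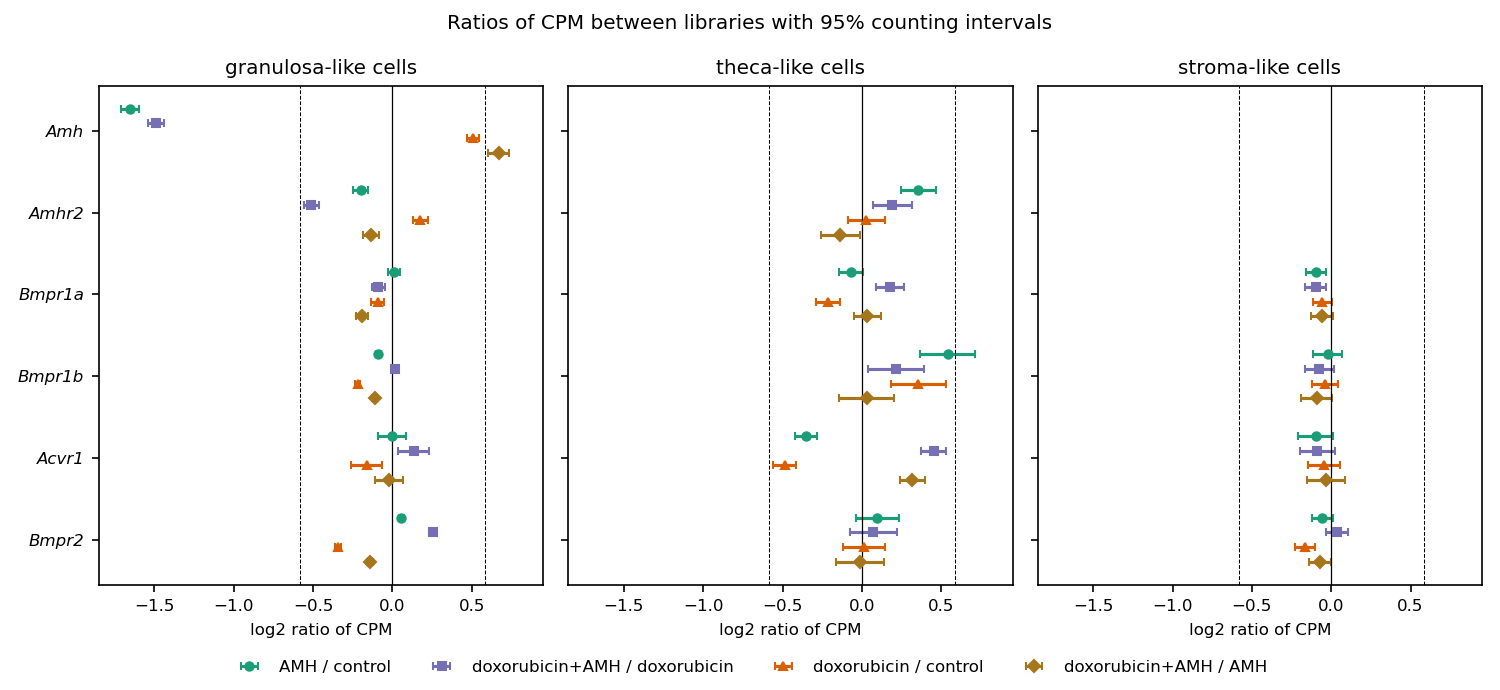
Log2 ratio of CPM between libraries (x axis) for each gene (y axis) in granulosa-like, theca-like and stroma-like cells, with symbols for the 4 contrasts, 95% counting intervals as bars and dashed lines at 1.5-fold; genes with a mean under 20 CPM in a class are left out. Amh is the 1 gene with ratios beyond the dashed lines in both AMH contrasts, and no receptor lies beyond them in granulosa-like or theca-like cells.

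Transcripts of Amhr2 and a type 1 receptor were found in the same cells. At 2000 UMIs per cell, Amhr2 was detected in 19.5%, 22.9%, 16.2% and 17.5% of granulosa-like cells and in 9.99%, 10.6%, 13.1% and 13% of theca-like cells, against 0.887% to 2.03% of stroma-like cells. Of granulosa-like cells with an Amhr2 UMI, 77.3%, 73.2%, 76.0% and 80.0% also had a Bmpr1b UMI, 26.9% to 29.9% a Bmpr1a UMI and 5.78% to 8.82% an Acvr1 UMI. Among all granulosa-like cells at the same thinning, 83.4%, 79.1%, 81.2% and 83.0% had a Bmpr1b UMI, 25.4% to 29.2% a Bmpr1a UMI and 4.96% to 6.14% an Acvr1 UMI. The Bmpr1b share was thus not higher among cells with an Amhr2 UMI than in the whole class. The Cntn4 and Slc18a2 cluster had Amhr2 in 35.0% to 44.4% of its cells and Bmpr1b in 64.7% to 70.4%, and the part of this cluster in that share was not tested. Of theca-like cells with an Amhr2 UMI, 19.0% to 30.2% also had an Acvr1 UMI, 17.2% to 22.9% a Bmpr1a UMI and 1.22% to 5.21% a Bmpr1b UMI, against 18.5% to 26.7%, 20.8% to 23.1% and 4.04% to 6.02% of all theca-like cells. Ligand and receptor were seen together in 3.69%, 6.88%, 1.73% and 1.69% of granulosa-like cells, where the product of the 2 single shares gave 2.68%, 4.72%, 1.63% and 1.30%.

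**Figure D4:**
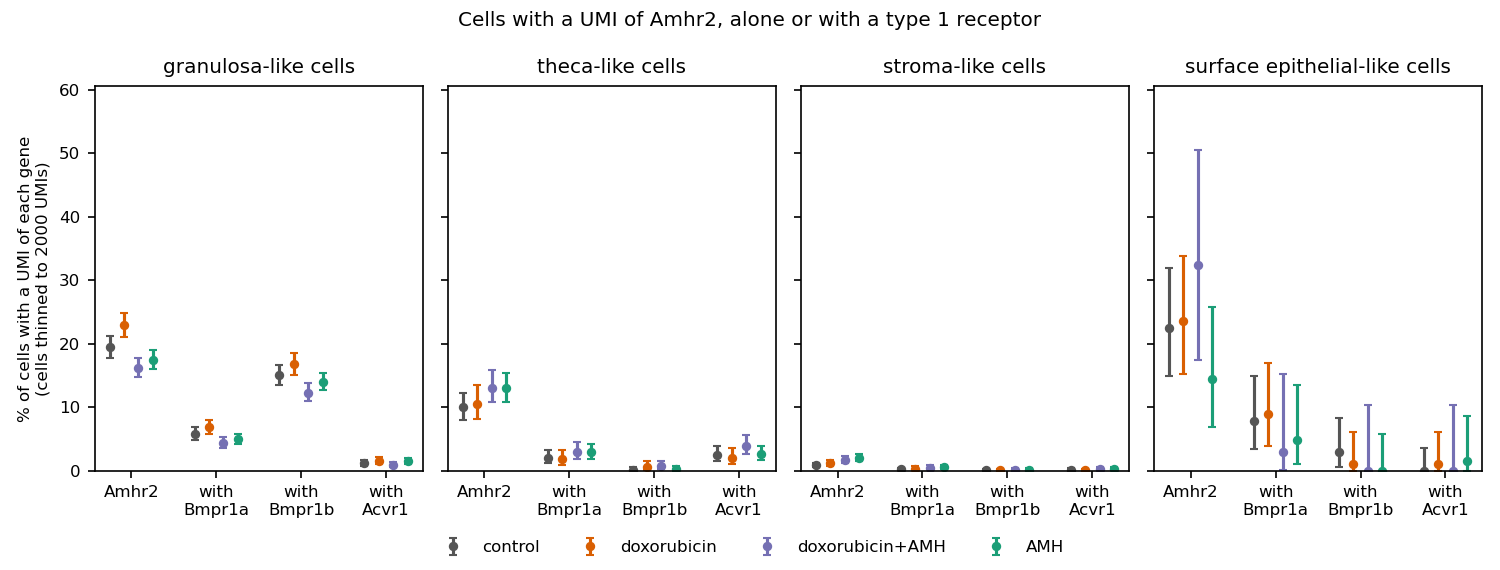
Share of cells (y axis, %, each cell thinned to 2000 UMIs) with a UMI of Amhr2, or of Amhr2 together with a type 1 receptor (x axis), in 4 classes; points are libraries and bars are Clopper-Pearson 95% intervals. Bmpr1b is the most frequent partner in granulosa-like cells and is near 0 in theca-like cells, where Acvr1 and Bmpr1a are the more frequent partners.

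The other genes of the pathway were taken from 6 lists with 38 genes, of which 20 passed the filter in granulosa-like and 21 in theca-like cells. In granulosa-like cells 2 were past 1.5-fold higher and 3 lower in both AMH contrasts, and none in both doxorubicin contrasts. Over all genes tested there the shares were 0.347% higher and 1.06% lower in the AMH contrasts, and 0% in the doxorubicin contrasts, so the absence of pathway genes from the latter says nothing particular to them. The lists were chosen with earlier results of these data known, so these counts are descriptions and do not measure whether the pathway stands out. Smad6 and Smad7 encode inhibitory SMADs that BMP signals induce. Smad6 had 31.6, 34.4, 65.1 and 97.7 CPM, with log2 ratios of 1.49 between AMH and control and 0.83 between doxorubicin+AMH and doxorubicin. Smad7 had 89.6, 93.1, 145 and 140 CPM, with 0.61 in both. Both genes were higher in each AMH-treated library than in either of the others.

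The genes that were lower belonged to other steps. Pcsk6, one of the proprotein convertases that cleave TGF-β family precursors, had 65.7, 65.2, 15.4 and 20.2 CPM in granulosa-like cells, with log2 ratios of -1.49 and -1.78. Wt1, a transcription factor listed as a regulator of Amh, had 138, 111, 62.6 and 75.3 CPM (-0.83 and -0.78). Smad3, a receptor SMAD of the activin and TGF-β branch, had 64.1, 59.9, 36.2 and 39.3 CPM (-0.64 and -0.65), and with median-of-ratios scaling it fell short of 1.5-fold at -0.54 and -0.57. The other 4 genes called in granulosa-like cells stayed past it under that scaling. Gata4 and Foxl2, regulators named here after their values were seen, had log2 ratios of -0.45 and -0.66 and of -0.38 and -0.65, past 1.5-fold in 1 contrast each. Both calls, in doxorubicin+AMH / doxorubicin, lie near the threshold of 0.585. Median-of-ratios scaling moved the median of all genes up by 0.085 in that contrast, and values of Gata4 and Foxl2 under it are not given here. The list of regulators of Amh transcription had a median of -0.45 and -0.66 over the 3 of its 7 genes that passed the filter. The medians of all genes were -0.059 and -0.035. Of the regulators below the filter, Nr5a1 had -0.53 and -0.69, Sox9 0.37 and -0.26, Sox8 0.074 and 0.21, and Nr0b1 -0.21 and 0.25.

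In theca-like cells 5 of the 21 pathway genes were past 1.5-fold higher and 3 lower in both AMH contrasts, where 4.28% of all genes tested were higher and 6.61% lower. Because the lists were chosen with earlier results known, these counts too are descriptions and do not measure whether the pathway stands out. All 3 Id genes that passed the filter, which encode inhibitors of helix-loop-helix factors and are direct BMP targets, were higher. Id3 had 60.5, 67.5, 496 and 526 CPM (log2 ratios of 3.02 and 2.79), Id1 47.0, 54.5, 142 and 154 CPM (1.61 and 1.31) and Id2 78.8, 63.5, 200 and 228 CPM (1.48 and 1.58). In granulosa-like cells Id3 had 421, 432, 461 and 441 CPM and no Id gene was past 1.5-fold in both AMH contrasts. Id2 came nearest there, with 0.79 and 0.57. Whether the Id response differs between the 2 cell types was not tested.

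Smad7 in theca-like cells had 14.9, 13.2, 53.6 and 59.0 CPM, with log2 ratios of 1.69 in both AMH contrasts. Bambi, a pseudoreceptor that blocks type 1 receptors, had 29.6, 30.6, 75.7 and 79.3 CPM (1.28 and 1.18). Lower were the ligand gene Bmp6, at 105, 81.0, 12 and 11.1 CPM (-2.78 and -2.34), the co-receptor gene Tgfbr3, at 314, 362, 178 and 189 CPM (-0.72 and -1.0), and Nr5a1, at 180, 179, 56.2 and 59.4 CPM (-1.52 and -1.59). For each of these 5 genes the 2 AMH-treated libraries lay on one side of both others. These ratios stand beside the lower theca markers and the change of cluster in the same libraries, whose part in them was not tested.

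**Figure D5:**
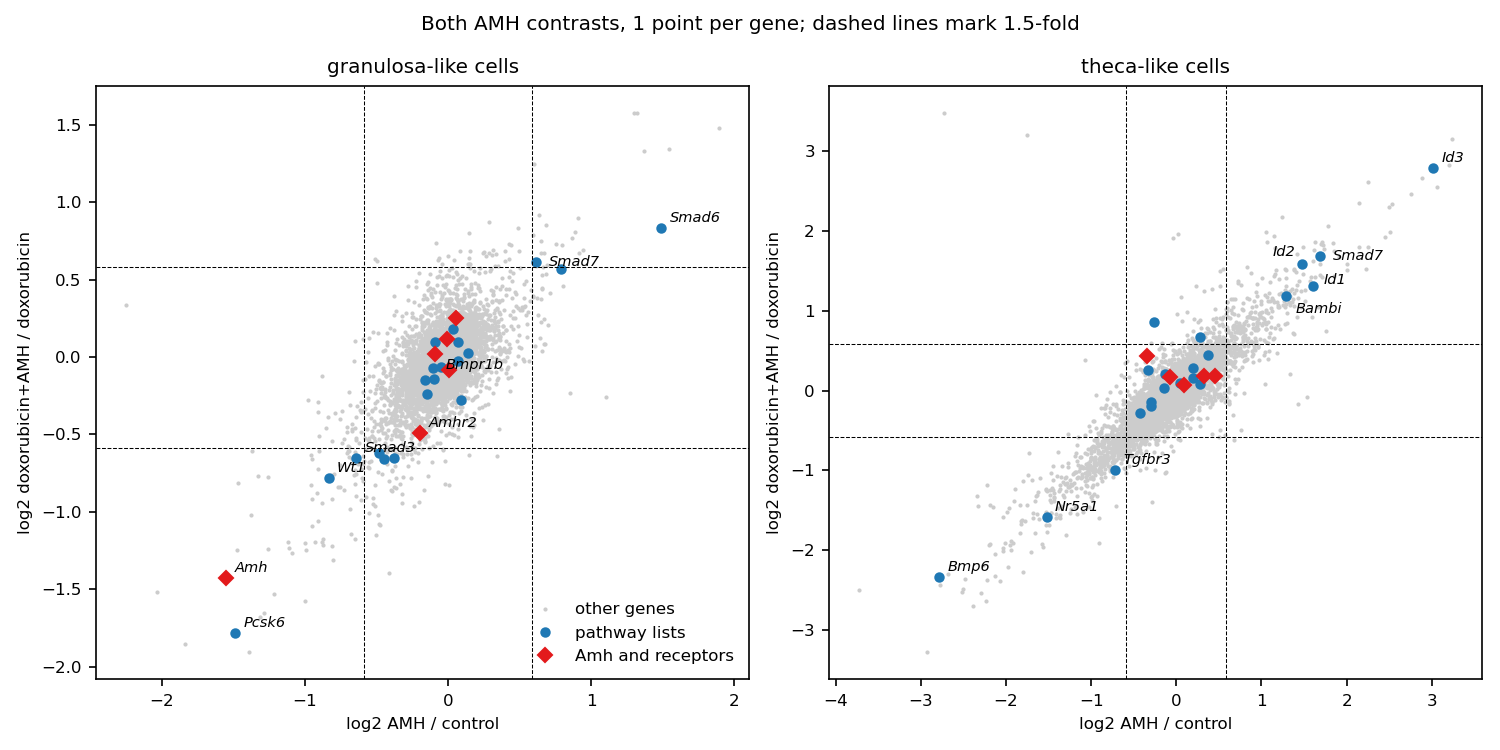
Log2 ratio of AMH / control (x axis) against doxorubicin+AMH / doxorubicin (y axis) for every gene that averaged 20 CPM or more in granulosa-like (left) and theca-like cells (right); red diamonds are Amh and its receptors, blue circles the pathway lists and dashed lines mark 1.5-fold. In granulosa-like cells Amh lies at -1.55 and -1.43 near Pcsk6, while the receptors lie inside the dashed lines in both panels.

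Over 90 sums of cells by cluster and library (28 clusters with at least 50 cells), the genes whose level was most like that of Amh were Wfdc10 (Pearson r of 0.94), Slc18a2 (0.91), Apoa1 (0.87), Spin2c (0.86) and Mycl (0.86), among 7135 genes. Those most like Amhr2 were Cst12 (0.88), Sh2d4a (0.88), Me2 (0.85), Tnni3 (0.85) and Cryl1 (0.84). Between members, r was 0.81 for Bmpr1b with Bmpr2, 0.76 for Amh with Amhr2, 0.64 for Amh with Bmpr1b and -0.39 for Amh with Acvr1. Sums of 1 library share its depth and sums of 1 class its cell type, so these values are descriptions.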

How the data were processed

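The authors deposited 1 matrix of UMI counts per gene and cell barcode for each library, with no normalization, and the file headers name Cell Ranger 7.0.0 as its writer. The submitters' processing notes name R 4.2.0, Seurat 4.1.0 and mm10. Whether intronic reads were counted is not given in the sources used here. The libraries held 9202, 7141, 7818 and 9478 barcodes and 178279122, 143127593, 138647495 and 169170501 UMIs (control, doxorubicin, doxorubicin+AMH, AMH), and the shallowest barcode of a library had 500 or 501 UMIs.

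Barcodes under 1000 UMIs or over 20% mitochondrial UMIs were dropped, and the highest Scrublet scores were removed at 0.8% per 1000 cells (632, 366, 437 and 648 cells), because its automatic calls (275, 2, 3 and 0) were too few to use. That left 7956, 6040, 6546 and 7898 cells. The 4 libraries were clustered together in scanpy 1.11.5 without batch correction and without the member and pathway genes (2000 variable genes, 30 components, 20 neighbours, Leiden resolution 1.0, leidenalg 0.10.2). There were 14 marker lists. A cluster took the name of a list when 3 or more of its markers, and 60% or more of the list, were raised by 1 or more on the log2 scale and present in 10% of cells. It stayed unnamed where its 10 leading genes held more markers of another list, or where its UMIs were below the library median divided by 3 with no marker among those genes.

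UMIs were summed per class and library and given as CPM. Ratios have exact conditional binomial intervals and levels exact Poisson intervals, at 95%. Printed folds are ratios of CPM, and calls use log2(CPM + 5) at 1.5-fold. The ratios and intervals were tested on simulated sums drawn with counting error alone. That simulation could not show how they hold under spread between cells or libraries, which it left out. Shares of cells were taken after thinning each cell to 2000 UMIs. Named genes are the 6 members, pathway genes past 1.5-fold the same way in both contrasts of a pair that shares no library, and the 5 genes most like Amh and Amhr2. The members and lists were chosen with earlier results of these data known. Alternatives were another scaling, filter, doublet rule, weighting, clustering, marker gate, pseudocount, thinning and fold.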

Additional observations from a re-analysis of the deposited data

Results flagged for a closer look

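Bmpr1b had opposite log2 ratios of doxorubicin+AMH / doxorubicin in 2 classes outside the follicle: 0.63 in macrophage-like cells against -0.66 in mural smooth muscle-like cells. They lie 1.29 apart, and the difference was not tested. Macrophage-like cells had 10.9, 11.7, 20.8 and 102 CPM (control, doxorubicin, doxorubicin+AMH, AMH), so Bmpr1b averaged over 20 CPM there through the AMH library alone. The 0.63 rests on 9 and 22 UMIs from 95 and 99 cells, and its 1.78-fold has a counting interval of 0.789 to 4.40. With each cell weighted equally the levels there were 18.1, 5.28, 32.8 and 43.9 CPM. Mural smooth muscle-like cells had 80.4 and 49.1 CPM in doxorubicin and doxorubicin+AMH.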

How the results depend on the processing

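No paired analysis was possible because each group is 1 library. In granulosa-like cells Amh kept its sign in each of 11 alternatives for all 4 contrasts, and was past 1.5-fold in all 11 for both AMH contrasts. For AMH / control its log2 ratio was -1.45 with median-of-ratios scaling, -1.63 with a pseudocount of 1, -1.12 with each cell weighted equally, -1.70 with at most 10% mitochondrial UMIs and -1.24 with the cluster mix held at that of control. For doxorubicin+AMH / doxorubicin it was -1.34 with that scaling and also with equal weights, -1.53 with the per-cell marker gate, -1.54 with at most 10% mitochondrial UMIs, -1.60 with doublets left in, -1.48 with each library clustered alone, -1.33 without the clusters held by 1 library and -1.13 with the mix held. For doxorubicin / control it was 0.69 with equal weights, which is past 1.5-fold, 0.40 without those clusters and 0.41 with the mix held. For doxorubicin+AMH / AMH it fell short of 1.5-fold with equal weights (0.48), the gate (0.50), doublets left in (0.46) and the mix held (0.52). Amhr2 for AMH / control was -0.086 with the other scaling, -0.24 with doublets left in and 0.042 with the mix held. For doxorubicin+AMH / doxorubicin it was -0.40 with the other scaling, -0.54 with the gate, -0.60 with doublets left in, which is past 1.5-fold, -0.43 without the clusters held by 1 library and -0.16 with the mix held. For doxorubicin / control it was 0.24 with equal weights, 0.11 without those clusters and 0.12 with the mix held. At 2-fold, 0 pathway genes were higher and 1 lower in both AMH contrasts in granulosa-like cells, and without a filter 9 were higher in theca-like cells. Bmpr1b for doxorubicin+AMH / doxorubicin turned sign in macrophage-like cells with the gate (-1.74), 500 UMIs (-0.52), doublets left in (-2.17) and resolution 2.0 (-0.51), and in mural smooth muscle-like cells with equal weights (0.12) and each library clustered alone (3.79). The settings without clusters held by 1 library, with the mix held, and with the pathway genes rescaled were chosen after seeing the data. Of 918 other values under alternatives, 742 stayed within counting error, 170 moved by more, and the 6 given for Bmpr1b are those where a value past 1.5-fold turned sign. Ratios short of 1.5-fold also changed sign under some alternatives. The cause of these changes was not tested. Of the 5 genes most like Amh, 2 were also in the first 5 by Spearman's rho, and 3 for Amhr2. Depth limits the small classes most, such as the 38 surface epithelial-like cells of doxorubicin+AMH.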

Other observations

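A cluster that was left unnamed, with Hsd17b1, Inha, Inhba and Amh among its leading genes and a median of 2893 UMIs per cell, held 80, 165, 143 and 238 cells in control, doxorubicin, doxorubicin+AMH and AMH. Amh there was 112, 280, 103 and 67.1 CPM and Amhr2 74.5, 111, 79.6 and 108 CPM. For Amh, doxorubicin was again the highest library and AMH the lowest.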
